A study of Homo sapiens with 4 samples.

Results

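The BCL2 family genes described here are BBC3, PMAIP1, BID, BCL2L11, BAX, BAK1, MCL1 and BCL2L1, which were taken by gene symbol from a table of 36602 genes. These 8 genes were measured in OVCAR5 cells, an established human ovarian carcinoma line, by droplet single-cell RNA sequencing of transcript 3′ ends with cell hashing, in which antibody-borne tags mark the culture a cell came from. Per the labels, cultures received supernatant of a coculture of tumour cells with T cells, undiluted or diluted 5-, 25-, 125- or 625-fold, for 2, 6, 12 or 24 h, and unstimulated cultures were kept for the same times, which makes 24 conditions in 1 pool. The labels list 2 gene-expression and 2 hashtag libraries of that pool, and the counts form 1 matrix whose barcodes are not split by library. Which culture a tag pair stands for is not stated in the sources used here, so the 24 pairs found in the data are called hashtag samples and named by their tags (HTO8/HTO10), and no treated group was set against an untreated one. Each condition is listed once in the labels, without a replicate, so levels carry intervals for counting error alone and no test was made.

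The family decides whether a cell keeps its mitochondria intact. BAX and BAK1, the effectors, open pores in the outer mitochondrial membrane, through which cytochrome c escapes and starts the caspases. MCL1 and BCL2L1 (BCL-xL) are protectors that hold effectors and activators in check, and the BH3-only genes BBC3 (PUMA), PMAIP1 (NOXA), BID and BCL2L11 (BIM) encode proteins that bind the protectors or trigger the effectors. BBC3 and PMAIP1 are known as p53 target genes that other stress signals can also switch on, and BAK1 and MCL1 are known to answer cytokines. In what follows the 4 BH3-only genes and the 2 effectors are called killers and the other 2 members protectors.

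The sequence before the start site is shown for the BH3-only genes BBC3 and PMAIP1, which varied most beyond counting error, and for the effector BAK1, which had the widest fold of the remaining members. The sequences come from RefSeq on GRCh38.p14 and run 5′ to 3′ on the gene's own strand, starting 250 bases before the RefSeq start site and ending where the GENCODE 29 gene begins. BBC3 is shown for chr19:47232767-47232917 (minus strand), PMAIP1 for chr18:59899746-59899947 (plus strand) and BAK1 for chr6:33580294-33580526 (minus strand). Capitals mark GC boxes (GGGCGG on either strand) and, in BAK1, a p53 half-site that overlaps a GC box by 1 base.
BBC3: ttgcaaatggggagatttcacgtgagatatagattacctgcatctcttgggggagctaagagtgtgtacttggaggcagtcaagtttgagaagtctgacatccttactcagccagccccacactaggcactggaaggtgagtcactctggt
PMAIP1: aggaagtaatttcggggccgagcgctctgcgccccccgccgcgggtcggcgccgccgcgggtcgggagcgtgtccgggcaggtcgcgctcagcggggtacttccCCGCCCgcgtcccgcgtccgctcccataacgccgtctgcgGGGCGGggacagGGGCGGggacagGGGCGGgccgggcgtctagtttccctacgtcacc
BAK1: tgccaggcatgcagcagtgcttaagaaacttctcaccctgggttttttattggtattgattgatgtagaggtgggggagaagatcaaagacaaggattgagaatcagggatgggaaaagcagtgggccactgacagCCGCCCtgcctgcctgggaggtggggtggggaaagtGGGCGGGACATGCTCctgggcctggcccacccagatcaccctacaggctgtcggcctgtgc
The PMAIP1 stretch held 4 GC boxes, 3 of them repeats on the plus strand, and the BAK1 stretch held 2. GC boxes occurred in 42.6% of 34788 RefSeq windows of the same 250 bases, and the p53 half-site, searched by name as a degenerate motif on both strands, in 5.59%. The half-site of BAK1 lay 73 to 64 bases before its start site. The searched STAT dimer motif TTCNNNGAA (6.57% of windows), the IRF core of GAAA, any 2 bases and GAAA (3.02%), the NF-κB motif by name (5.21%) and TGACGTCA (1.64%) had no match in the 250-base windows of the 7 members with an entry, and BBC3 had no match to any motif searched. MCL1 was without an entry.

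Of 10660 barcodes, 6408 passed a minimum of 1000 genes and a maximum of 20% mitochondrial UMIs (unique molecular identifiers, 1 per captured transcript), and 5298 of these carried 1 clear tag pair. The 24 samples held 137 to 272 cells and 1863154 to 3904112 UMIs each, so that 3 counts equal 0.768 to 1.61 CPM, that is, UMIs per 1e6 gene UMIs of the sample. All 8 epithelial markers were found, at a sum of 1932 to 3667 CPM per sample. Most of it came from KRT18, KRT8 and KRT7, with means of 1589, 706 and 520 CPM. PAX8 and CDH1 averaged 3.09 and 2.26 CPM, close to the T cell marker TRBC2 with 2.70 CPM. The 8 T cell markers summed to at most 6.98 CPM, nearly all of it TRBC2, and CD3E, CD2, PTPRC and GZMB were at 0. The 5 fibroblast markers summed to at most 1.39 CPM, with COL1A2, DCN and LUM at 0. HTO3/HTO9 stood apart with the lowest median depth of its cells, 9389 UMIs, and a median mitochondrial share of 13.8%, the highest of the samples. Values without it are given beside the main results that rest on it.

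The 8 members gave 51762 UMIs in these cells. PMAIP1, BID, BAX, BAK1, MCL1 and BCL2L1 averaged at least 20 CPM, while BBC3 and BCL2L11 stayed below that level. Ranges were taken as the highest minus the lowest sample on the log2(CPM + 10) scale, which understates the change of low genes. Of the 6 members above 20 CPM, 4 spanned at least 2-fold on that scale (PMAIP1, BAK1, MCL1 and BCL2L1), and 0 spanned at least 4-fold. BCL2L1, with a log2 range of 1.02, and BID, with 0.94, lay on either side of the 2-fold line by less than their counting error. Of all 5767 genes at that level, 26.1% spanned at least 2-fold, and 4.13% reached 4-fold. Without HTO3/HTO9, 3 of the 6 members and 1167 of 5765 genes spanned at least 2-fold. The median range was 1.147 for these members and 0.74 for all genes, in log2 units. Because counting noise widens such ranges, the spread was also set against counting error. The variance over samples was 42.8 times the counting variance for PMAIP1, 14.3 for BAK1, 14.0 for MCL1, 13.2 for BID, 11.1 for BCL2L1 and 5.20 for BAX, against a median of 3.88 for all genes of at least 20 CPM. At the same fold spread this multiple grows with a gene's level, so genes of unlike level cannot be ranked by spread with it.

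**Figure D1:**
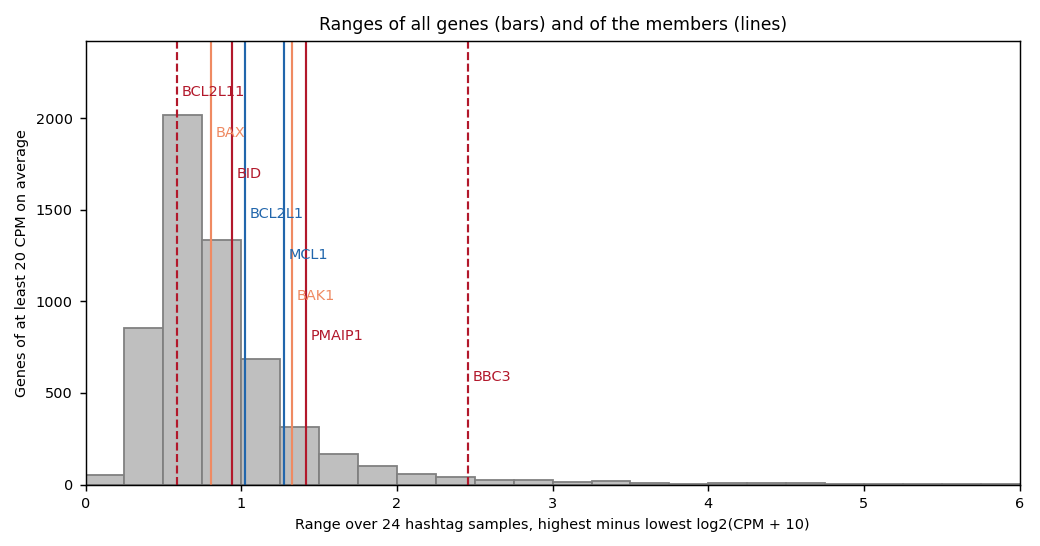
The histogram counts genes of at least 20 CPM by their range over the 24 hashtag samples (highest minus lowest log2(CPM + 10)), and lines mark the members, dashed where the mean is under 20 CPM. BBC3 lies far right at 2.46, the other members between 0.59 and 1.42.

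Among the BH3-only genes, BBC3 (chr19:47220822-47232766, minus strand, GENCODE 29) was low in most samples and formed a gradient up to clear expression. It measured 0.612 CPM in the lowest sample, HTO7/HTO9, where 2 UMIs were counted, 3.26 CPM in the median sample and 48.3 CPM (95% Poisson interval 41.5 to 55.8) in HTO8/HTO10. It was at or above 10 CPM in 8 samples and below in 16. Those 8 were HTO8/HTO10 with 48.3, HTO5/HTO8 with 30.6, HTO3/HTO9 with 29.9, HTO2/HTO10 with 26.7, HTO9/HTO10 with 19.4, HTO6/HTO8 with 16.4, HTO3/HTO10 with 13.0 and HTO4/HTO9 with 12.3 CPM. The step between the first and the second of these was larger than counting error, while HTO5/HTO8, HTO3/HTO9 and HTO2/HTO10 could not be ordered. The 10 CPM line does not mark a gap. HTO1/HTO8, just below it with 9.08 CPM (6.33 to 12.6), overlapped HTO4/HTO9 (8.68 to 17.0). HTO8/HTO10 over HTO7/HTO9 gave a ratio of 78.9 (exact interval 21.5 to 657), and 50.1 with HTO8/HTO10 left out. The variance of BBC3 was 49.2 times the counting variance, and 5.22% of genes of at least 20 CPM had a higher value. In HTO8/HTO10 46.0% of cells held a BBC3 UMI, in HTO3/HTO8 2.06%, and in HTO7/HTO9, the lowest, 0.417%. With each cell thinned to 3000 UMIs the share was 12.6% (8.87 to 17.3%) in HTO8/HTO10 and 0% (upper bound 1.92%) in HTO3/HTO8, as in some other samples. The pool holds no cell type known to lack BBC3, so a background from free RNA could not be measured.

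PMAIP1 (chr18:59899948-59904306, plus strand) encodes NOXA, which binds MCL1, and was well expressed in every sample. It measured 109 CPM in HTO7/HTO10, 183.5 in the median sample and 308 in HTO3/HTO9 (287 to 330), a ratio of the highest to the lowest sample, as in what follows, of 2.83 (2.48 to 3.23). Without HTO3/HTO9 the highest sample was HTO2/HTO10 with 279 CPM, and the ratio 2.56. PMAIP1 was at or above 200 CPM in 10 samples and below 150 CPM in 4. The 4 highest samples, HTO3/HTO9, HTO2/HTO10, HTO8/HTO10 (269 CPM) and HTO9/HTO10 (240 CPM), were all among the 8 with BBC3 at or above 10 CPM. HTO5/HTO8 differed from them: BBC3 was second highest there while PMAIP1, at 162 CPM, was below its median.

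BID (chr22:17734138-17774770, minus strand), whose protein links death receptors to mitochondria once cut by caspase-8, moved less. It measured 62.4 CPM in HTO3/HTO8, 83.6 in the median sample and 129 in HTO5/HTO8 (116 to 144), a ratio of 2.07 (1.72 to 2.5). HTO3/HTO9 with 127 CPM and HTO6/HTO8 with 119 CPM followed, and no neighbours in the ranking of samples by BID level differed beyond counting error. BCL2L11 (chr2:111119378-111168447, plus strand), whose protein activates the effectors and binds all protectors, was low throughout. It measured 6.66 CPM in HTO5/HTO10, 9.75 in the median sample and 15.0 in HTO4/HTO9, a ratio of 2.25 (1.36 to 3.80). Its variance was 1.60 times the counting variance, so its samples could hardly be told apart at this depth. Of genes of at least 20 CPM 88.5% had a higher value, but their higher level raises that multiple.

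The effectors differed in how far they ranged. BAX (chr19:48954815-48961798, plus strand) measured 78.8 CPM in HTO3/HTO9, 126.9 in the median sample and 145 in HTO3/HTO8, a ratio of 1.84 (1.55 to 2.20), and 1.52 with HTO3/HTO9 left out. It was under 100 CPM only in HTO3/HTO9 and in HTO5/HTO8, which had 95.2 CPM. BAK1 (chr6:33572547-33580293, minus strand) measured 16.0 CPM in HTO4/HTO8, 37.95 in the median sample and 55.2 in HTO6/HTO8 (45.4 to 66.5), a ratio of 3.46 (2.37 to 5.14). BAK1 UMIs per BAX UMI went as low as 0.116 (0.0808 to 0.163) in HTO4/HTO8 and as high as 0.505 (0.393 to 0.646) in HTO3/HTO9. HTO6/HTO8, with 0.461, was next, so the spread of that ratio did not rest on HTO3/HTO9 alone. These are UMI ratios, uncorrected for how well each transcript is captured, and only their change between samples can be read.

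Of the protectors, MCL1 (chr1:150574551-150579738, minus strand), a short-lived protein that NOXA antagonizes, measured 70.1 CPM in HTO2/HTO9, 111 in the median sample and 184 in HTO3/HTO9 (167 to 201), a ratio of 2.62 (2.23 to 3.08). Only HTO3/HTO9 was above 150 CPM. Without it the highest sample was HTO1/HTO8 with 139 CPM, the ratio was 1.98 and the log2(CPM + 10) range was under 2-fold, at 0.90. BCL2L1 (chr20:31664452-31723989, minus strand) measured 84.3 CPM in HTO8/HTO10, 142.7 in the median sample and 181 in HTO3/HTO8, a ratio of 2.15 (1.87 to 2.49). Without HTO3/HTO8 the ratio was 1.90. Its 2 lowest samples, HTO8/HTO10 and HTO3/HTO9 (88.0 CPM), were among the highest for BBC3. MCL1 UMIs per BCL2L1 UMI lay between 0.539 in HTO4/HTO8 and 2.09 (1.77 to 2.46) in HTO3/HTO9, with HTO8/HTO10 next at 1.48 (1.28 to 1.71). Whether reads were assigned by strand is not given in the sources used here. BCL2L1 overlaps AL117381.1 and ABALON, and BCL2L11 overlaps MIR4435-2HG, all on the opposite strand. Reads of these pairs may be mixed if strand was not used. MCL1 overlaps ADAMTSL4-AS1 on the same strand, so strand alone cannot separate their reads. With the 24 samples ranked by each member's own CPM, neighbours differed beyond counting error in 2 of 23 steps for BBC3, 3 for PMAIP1, 1 each for MCL1 and BCL2L1 and 0 for the other members.

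**Figure D2:**
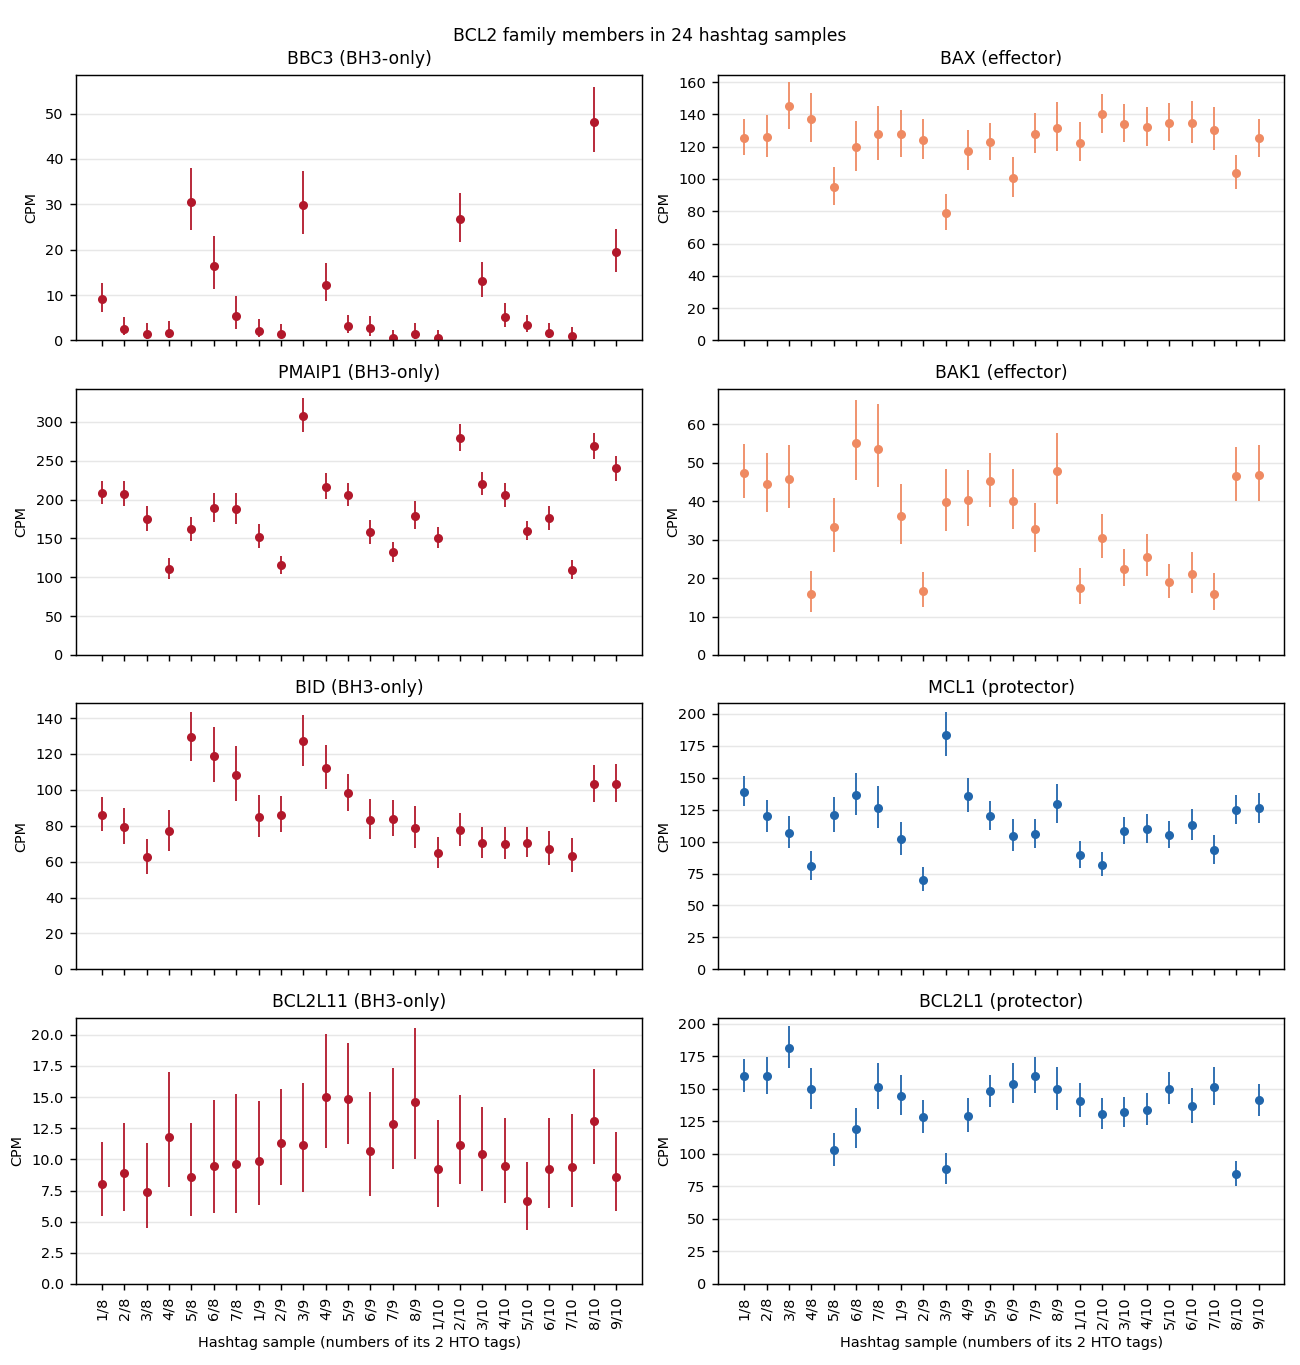
Each panel shows 1 member's CPM (y axis, from 0) in the 24 hashtag samples (x axis, in order of tag numbers), with exact 95% Poisson intervals. BBC3 stands at or above 10 CPM in 8 samples, and BCL2L1 is lowest in HTO8/HTO10 at 84.3 CPM.

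Killers and protectors were then summed. Killer genes gave 57.4% (54.9 to 59.8%) of the members' UMIs in HTO7/HTO10, 63.3% in the median sample and 73.6% (72.0 to 75.2%) in HTO8/HTO10, where the interval is exact binomial. HTO2/HTO10, with 72.7%, could not be told apart from HTO8/HTO10. In ratios of UMIs, killers over protectors were 1.35 in HTO7/HTO10 and 2.79 in HTO8/HTO10, a difference of 1.06 in log2. The killer sum lay between 329 and 595 CPM and the protector sum between 198 and 299 CPM. The BH3-only genes carried most of this range: they summed to 183 CPM in the lowest sample, HTO7/HTO10, and to 476 CPM in the highest, HTO3/HTO9 (434 CPM in the next), while the effectors summed to 119 CPM in HTO3/HTO9 (129 CPM in the next) and 191 CPM in HTO3/HTO8. With BH3-only genes alone as killers, the log2 difference between the same samples was 1.48. With BAX and BAK1 alone as killers, UMIs per protector UMI were 0.719 in HTO8/HTO10 and 0.599 in HTO7/HTO10. The extremes of that ratio were other samples, HTO2/HTO10 with 0.804 and HTO3/HTO9 with 0.437, a log2 difference of 0.88, so that HTO3/HTO9, with the highest killer sum, was lowest for the effectors alone.

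The members behind the highest killer shares were examined next. In HTO8/HTO10 BBC3 was 46.3 times (15.6 to 227) its level in HTO7/HTO10, where 3 UMIs were counted. PMAIP1 was 2.47 times (2.17 to 2.81), BAK1 2.92 times (2.1 to 4.14) and BID 1.63 times (1.365 to 1.958) its level there. BCL2L1 was 0.556 times (0.480 to 0.645). The largest difference in CPM was that of PMAIP1, 269 against 109, while BBC3 had 48.3 against 1.04. Counter to the higher killer share, MCL1 was 1.34 times (1.15 to 1.56) and BAX 0.794 times (0.688 to 0.918) its level there. The interval of BCL2L11 included 1. In HTO2/HTO10 PMAIP1 was 3.42 UMIs per MCL1 UMI (3.0 to 3.9), the highest of all samples. HTO8/HTO10 followed with 2.16, and HTO7/HTO10 had the lowest value, 1.17 (0.989 to 1.38). HTO3/HTO9 had the most killer CPM of all with a share of 68.7%, and MCL1 was also highest there.

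**Figure D3:**
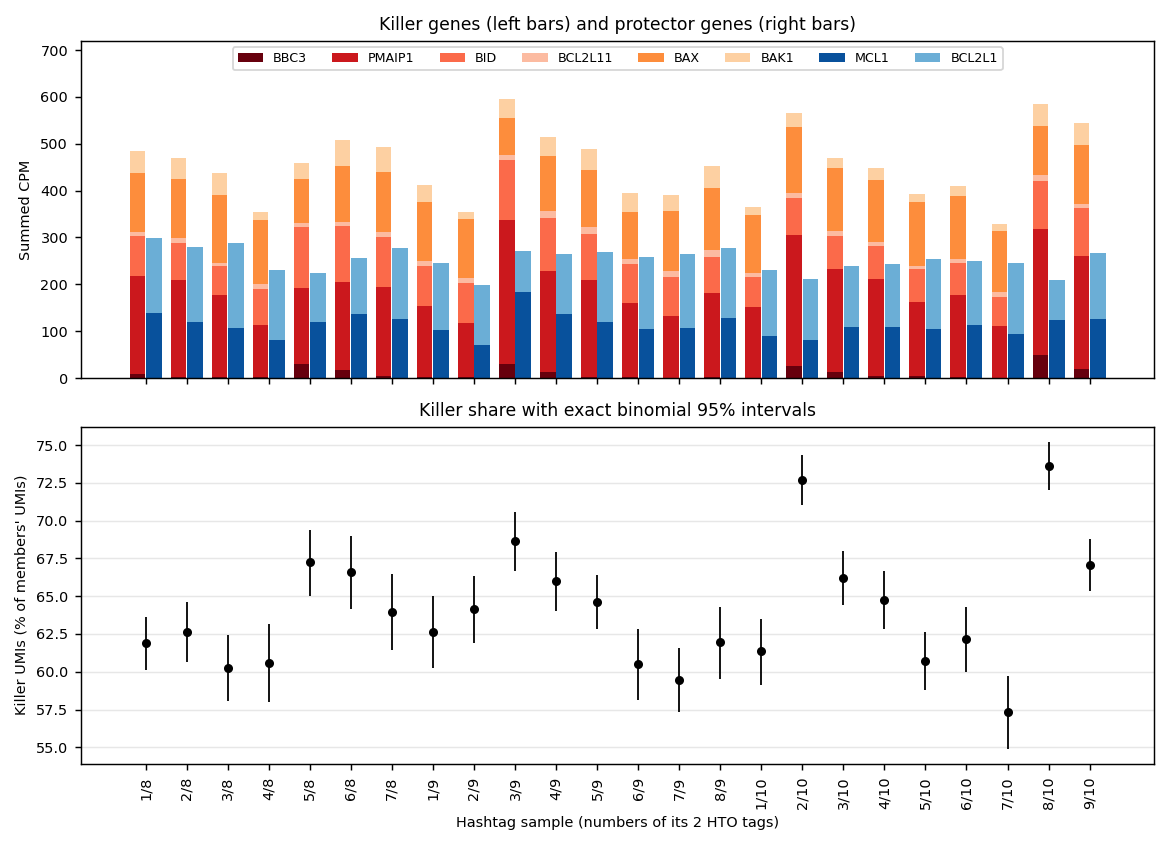
The upper panel stacks killer CPM (left bar) and protector CPM (right bar) for each hashtag sample by gene; the lower panel gives killer UMIs as a percent of the members' UMIs with exact binomial 95% intervals, on an axis that does not start at 0. HTO8/HTO10 and HTO2/HTO10 stand highest at 73.6% and 72.7%.

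Members were compared with gene lists over the 24 samples. Correlations are a description only, because conditions share doses and times and all samples share 1 pool of cells and its libraries. BBC3 followed the summed NF-κB list (14 of 14 tested genes ranged by 2-fold or more, against 26.1% of all genes; SOD2, a mitochondrial antioxidant enzyme, ICAM1, an adhesion molecule, and CXCL8, a neutrophil chemokine, lead it) with r = 0.88 and rho = 0.94, and r = 0.90 without the 2 samples farthest out. PMAIP1 followed the same list with r = 0.87 and rho = 0.86 (0.82 without 2), and the killer to protector ratio with r = 0.80 and rho = 0.85 (0.77 without 2). BCL2L1 ran the other way, with r = -0.60 and rho = -0.58. BAK1 and MCL1 followed the interferon gamma list (15 of 15 genes ranged by 2-fold or more; CXCL10, a T cell attractant, IDO1, a tryptophan-degrading enzyme, and IRF1, a transcription factor, lead it) with r = 0.82 each, and rho = 0.74 for BAK1 and 0.77 for MCL1. BID followed it with r = 0.77 and rho = 0.85. BAK1 was not highest where the interferon gamma list was. It measured 39.8 CPM in HTO3/HTO9 and 33.2 CPM in HTO5/HTO8, which had the most of that list. The lists did not divide the members cleanly: with interferon gamma PMAIP1 had r = 0.65 and BBC3 r = 0.56, and with NF-κB MCL1 had r = 0.63, BID r = 0.62 and BAK1 r = 0.51. BCL2L11 was near 0 with NF-κB (r = 0.04) and at 0.21 with interferon gamma.

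A pair of samples in which the lists differed in opposite directions was picked after the values were seen. HTO2/HTO10 had 5008 CPM of the NF-κB list and 2749 CPM of the interferon gamma list, while HTO7/HTO8 had 1773 CPM of the NF-κB list and 8641 CPM of the interferon gamma list. BBC3 measured 26.7 CPM in HTO2/HTO10 and 5.37 CPM in HTO7/HTO8, a ratio of 4.97 (2.59 to 10.7), and PMAIP1 279 CPM in HTO2/HTO10 and 188 CPM in HTO7/HTO8, a ratio of 1.49 (1.32 to 1.68). BAK1 measured 30.5 CPM in HTO2/HTO10 and 53.7 CPM in HTO7/HTO8, a ratio of 0.568 (0.430 to 0.752), and MCL1 81.7 CPM in HTO2/HTO10 and 126 CPM in HTO7/HTO8, a ratio of 0.648 (0.544 to 0.772). BID was likewise lower in HTO2/HTO10, with a ratio of 0.716 (0.596 to 0.862). BAX, BCL2L11 and BCL2L1 had ratios whose intervals include 1. Not every such pair gave this picture. HTO8/HTO10 had 4847 CPM of the NF-κB list and 6031 CPM of the interferon gamma list, and HTO5/HTO9 had 1645 and 9330 CPM. BBC3 (48.3 and 3.19 CPM) and PMAIP1 (269 and 206 CPM) were again higher with more of the NF-κB list. BAK1 (46.7 and 45.2 CPM), MCL1 (124.8 and 120.1 CPM) and BID (103.2 and 98.0 CPM) were not lower in HTO8/HTO10.

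**Figure D4:**
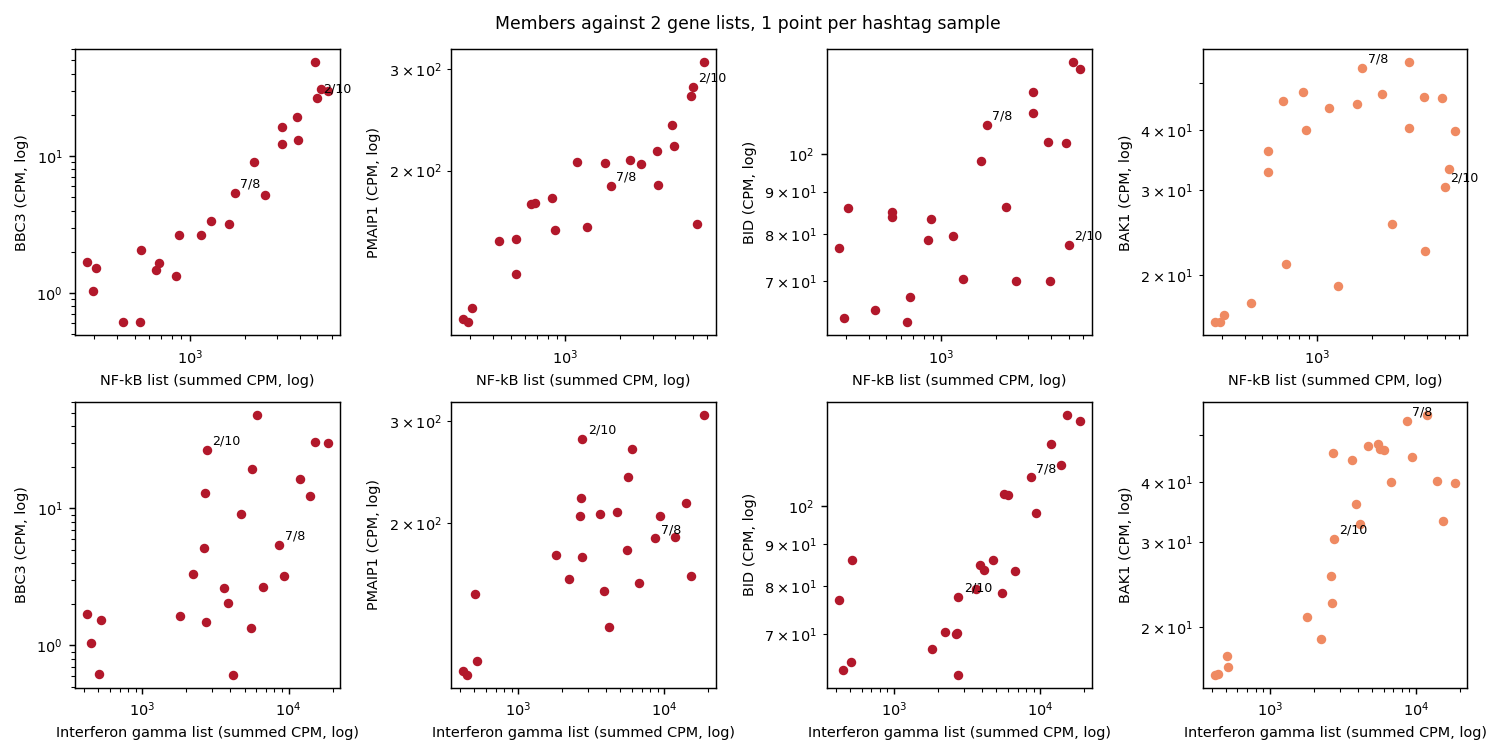
Each point is 1 of 24 hashtag samples, with the summed CPM of the NF-κB list (top row) or the interferon gamma list (bottom row) on the x axis and the CPM of BBC3, PMAIP1, BID or BAK1 on the y axis, all on log scales; HTO2/HTO10 and HTO7/HTO8 are marked. BBC3 rises with the NF-κB list (rho 0.94), and BAK1 more loosely with the interferon gamma list (rho 0.74). BAK1 is not highest at the upper end of that list, with 39.8 CPM in HTO3/HTO9 and 33.2 CPM in HTO5/HTO8.

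Most members also went with the summed G2/M level and with the mitochondrial share, BID and BAX with the largest r. Against the summed G2/M list (15 of 15 genes ranged by 2-fold or more, and 14 of 15 without HTO3/HTO9; TOP2A, which untangles DNA, TPX2, a spindle factor, CDC20, which drives exit from mitosis, and ANLN, which helps cells part, lead it) BAX had r = 0.80 and rho = 0.56, but r = 0.39 without the 2 farthest samples, and BID had r = -0.80 and rho = -0.79 (-0.77 without 2). Against the median mitochondrial share of a sample's cells BID had r = 0.80 and BAX r = -0.73 (0.70 and -0.40 without 2). MCL1 had r = 0.62 with the mitochondrial share and -0.61 with G2/M (0.47 and -0.40 without 2), and BCL2L1 r = -0.59 and 0.60 (-0.28 and 0.19 without 2). BAK1 had r = 0.43 with the mitochondrial share and -0.35 with G2/M (0.52 and -0.51 without 2), and BCL2L11 r = 0.38 and -0.29 (0.58 and -0.57 without 2). For BBC3 r was 0.465 with the mitochondrial share and -0.495 with G2/M (0.19 and -0.19 without 2). For PMAIP1 r was 0.37 and -0.37 (0.26 and -0.20 without 2). The killer to protector ratio had r = 0.40 and -0.38 (0.28 and -0.25 without 2). The part of cell division and of RNA quality in these results was not tested.

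Between members, BBC3 and PMAIP1 moved together (r = 0.72, rho = 0.77, and r = 0.81 without the 2 samples farthest out on the first-named gene). So did BAK1 and MCL1, an effector with a protector (r = 0.70, rho = 0.78, and 0.65 without 2). BAX and BCL2L1 had r = 0.73 but rho = 0.44 (0.49 without 2). BBC3 and BCL2L1 ran opposite (r = -0.81, rho = -0.62, and -0.68 without 2), and so did BID and BAX (r = -0.70, rho = -0.74, and -0.54 without 2). BAK1 and BAX, the pair of effectors, had r = -0.27. Of the 1504 genes ranging by 2-fold or more, those most like BBC3 by rho over the 24 samples were NINJ1 (0.95), which ruptures the membrane of dying cells, TNFRSF9 (0.95), a T cell costimulatory receptor, and IFNGR2 (0.94), a chain of the interferon gamma receptor. Those most like PMAIP1 were NFKBIE (0.89), an NF-κB inhibitor, SOCS3 (0.88), a brake on cytokine receptors, and GCNT2 (0.88). MSRB1 (0.95), TRIM21 (0.91) and APOL6 (0.89) were most like BAK1, and CD274 (0.89), the gene of the checkpoint ligand PD-L1, ARNTL2 (0.88) and HAPLN3 (0.87) most like MCL1. For BID these were CARHSP1, SYNGR2 and SQOR (0.92 to 0.90), for BAX DTYMK, a gene of nucleotide synthesis, and RPP40 (0.84 and 0.82), and for BCL2L1 LRR1, LYAR and WDR3 (0.84 to 0.77). BCL2L11 had no neighbour above 0.69, reached by CCDC85B.

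The rest of the family and the chain downstream were read from gene lists. Of the 15 other BCL2 family genes 5 averaged at least 20 CPM, and 2 of those ranged by 2-fold or more, against 26.1% of all genes: BIK, a BH3-only gene, with 103 CPM in HTO6/HTO9 and 43.2 CPM in HTO1/HTO10, and BCL2L12, with 68.0 CPM in HTO3/HTO8 and 28.7 CPM in HTO3/HTO9. BAD, a BH3-only gene, ranged by 1.47-fold. BCL2 itself averaged 1.42 CPM and BMF gave 0 UMIs. The protector BCL2A1, a known NF-κB target singled out after its values were seen, was at 0 UMIs in 3 samples, at 2.11 CPM in the median sample and at 45.0 CPM in HTO3/HTO9. That is at least 35.7-fold higher than in HTO4/HTO8, taking 3 counts in that sample as its floor, and at least 27.2-fold with HTO3/HTO9 left out and HTO6/HTO8 highest at 34.3 CPM. With BCL2A1 counted among the protectors the log2 difference in the killer ratio was 0.96 and HTO2/HTO10 had the highest ratio.

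In the mitochondrial death chain 8 of 12 tested genes ranged by 2-fold or more, against 26.1% of all genes. BIRC3, an inhibitor of apoptosis also on the NF-κB list, measured 625 CPM in HTO3/HTO9 and 16.0 CPM in HTO4/HTO8, and its paralogue BIRC2 88.1 CPM in HTO4/HTO10 and 19.0 CPM in HTO7/HTO9. CYCS, the gene of cytochrome c, measured 1138 CPM in HTO3/HTO8 and 519 CPM in HTO3/HTO9, and the channel gene VDAC1 ranged by 1.52-fold (1.37-fold without HTO3/HTO9). Of 8 tested p53 targets 4 ranged by 2-fold or more, against the same 26.1%. CDKN1A, the cell cycle inhibitor p21, measured 69.3 CPM in HTO8/HTO10, where BBC3 was also highest, and 5.21 CPM in HTO7/HTO10. GADD45A measured 307 CPM in HTO3/HTO9 and 57.5 CPM in HTO7/HTO9, and PLK2 221 CPM in HTO3/HTO10 and 62.1 CPM in HTO8/HTO10. MDM2, a p53 target that degrades p53, ranged by 1.84-fold, and CCNG1 by 1.62-fold. BBC3 had r = 0.39 and PMAIP1 r = 0.49 with the summed p53 list. All 6 tested genes of the integrated stress response ranged by 2-fold or more, with ATF4 at 199.8 CPM in HTO3/HTO9 and 47.6 CPM in HTO6/HTO9, and DDIT4 at 244 CPM in HTO3/HTO9 and 4.10 CPM in HTO5/HTO10. BBC3 had r = 0.73 but rho = 0.49 with that list (r = 0.68 without the 2 farthest samples), and BCL2L1 r = -0.75 and rho = -0.53 (-0.71 without 2). For PMAIP1 r was 0.60 and rho 0.46 (0.36 without 2), and for the killer to protector ratio r was 0.68 and rho 0.54 (0.63 without 2). Without HTO3/HTO9, 1 of 5 other family genes (BIK), 5 of 12 death chain genes, 3 of 8 p53 targets and 6 of 6 stress response genes ranged by 2-fold or more, against 1167 of 5765 genes in all. The ratio of the highest to the lowest sample was then 1.57 for BCL2L12, 1.67 for CYCS, 29.5 for BIRC3, 5.28 for GADD45A, 2.95 for ATF4 and 32.8 for DDIT4.

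Within samples, PMAIP1 was uneven from cell to cell. Its variance over cells of the same sample was 2.59 times that of a Poisson count given each cell's depth, and 1.81% of 10039 genes found in at least 5% of cells had a higher value. The other members had 1.02 to 1.28 times. The median cell held 2 PMAIP1 UMIs, 143 of 5298 cells held 10 or more, and 1 cell held 46. The cells with the strongest antiviral expression had the most: the top 5% of each sample by the UMI share of IFIT1, IFIT2, IFIT3, OASL, RSAD2 and HERC5, 275 cells, measured 477 CPM of PMAIP1 against 175 CPM in the other 5023 cells, a ratio of 2.73 (2.59 to 2.86). PMAIP1 was higher in that class in 24 of 24 samples. This class was set after the values were seen. BBC3 measured 25.3 CPM in it and 9.60 CPM in the other cells, a ratio of 2.64 (2.11 to 3.27), and was higher in 18 of 24 samples, although 97 UMIs in the class limit that count. The other members had ratios of 0.882 to 1.24, and of those only the counting interval of BAX, 0.798 to 0.973, excluded 1. BAX was lower in 16 of 24 samples, as was BID. These intervals pool UMIs over cells and samples. PMAIP1 varied between cells beyond counting, so its interval is too narrow. Killers made up 75.0% (73.6 to 76.4%) of the members' UMIs in that class and 63.7% (63.2 to 64.1%) in the other cells. The median depth was 13407 UMIs in the class and 13204 in the other cells.

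Barcodes with over 20% mitochondrial UMIs, which the cell filter removed, differed in the members too. There were 1001 with a tag pair, with a median of 4340 UMIs against 13208.5 in the kept cells, and CPM were taken here without mitochondrial genes. MCL1 measured 216 CPM in these barcodes and 126 CPM in kept cells, a ratio of 1.71 (1.58 to 1.85), and was higher in 23 of 24 samples. PMAIP1 measured 132 CPM in these barcodes and 213 CPM in kept cells, a ratio of 0.621 (0.563 to 0.684), and was lower in 21 of 24. BAX was lower in 20 of 24 samples with a ratio of 0.791 (0.710 to 0.880), and BID higher in 17 of 24 with a ratio of 1.29 (1.17 to 1.43). Killers made up 53.9% of the members' UMIs in these barcodes and 64.5% in kept cells. The part of depth in these differences was not tested.

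**Figure D5:**
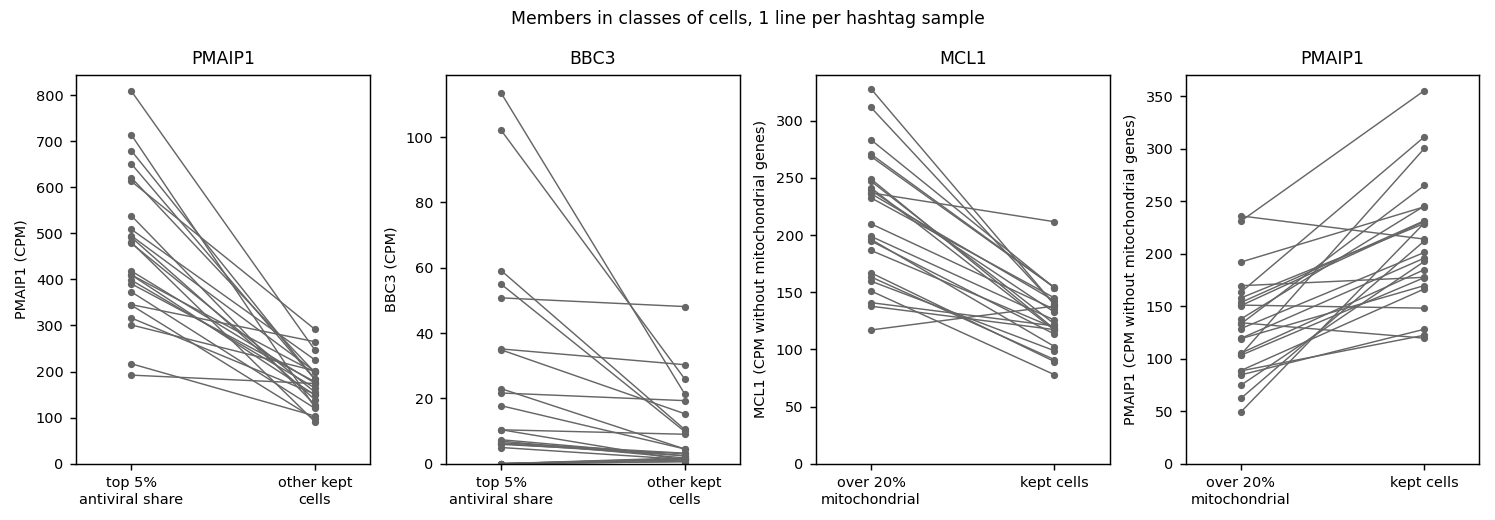
Lines join, for each of the 24 hashtag samples, the CPM in a class of cells (left) and in the other kept cells (right): PMAIP1 and BBC3 in the top 5% of cells by antiviral share, and MCL1 and PMAIP1 in barcodes with over 20% mitochondrial UMIs, where CPM leave out mitochondrial genes. PMAIP1 is higher in the antiviral class in 24 of 24 samples, and MCL1 is higher in the high-mitochondrial class in 23 of 24.

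Cells with the highest G2/M share of their sample differed little from the rest. The top 20% of each sample by G2/M share, 1064 cells, had ratios to the other 4234 cells of 1.16 (1.12 to 1.21) for PMAIP1, 1.13 (1.08 to 1.19) for BAX and 1.11 (1.06 to 1.17) for MCL1, and BAX was higher in 22 of 24 samples. The killer share was 64.8% in this class and 64.4% in the other cells. The class is a fixed part of each sample by rank, so the other cells can also include dividing cells. Its median depth was 15483.5 UMIs, against 12919.5 in the other cells. Cells with 10 or more UMIs of the hair keratin gene KRT81, 128 cells, had less BAX, with 77.8 CPM in KRT81 cells and 126 CPM in the other cells (ratio 0.619, 0.531 to 0.717). They also had less BAK1, with 18.9 CPM in KRT81 cells and 34.8 CPM in the other cells (ratio 0.544, 0.394 to 0.732). Both were lower in 21 of 23 samples with such cells. BID was higher in them, with a ratio of 1.44 (1.27 to 1.62) and in 20 of 23 samples, and PMAIP1 had a ratio of 1.22 (1.11 to 1.33) and was higher in 14 of 23. The killer share was 67.5% (65.1 to 69.8%) in KRT81 cells and 64.4% (64.0 to 64.8%) in the other cells. BBC3 rested on 8 UMIs there, with a ratio of 0.323 (0.139 to 0.639). BCL2L1 had a ratio of 0.879 (0.778 to 0.989) and was lower in 16 of 23 samples. The KRT81 cells were deeper, with a median of 17990.5 UMIs against 13151.5 in the other cells. The part of depth in these differences was not tested.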

How the data were processed

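Counts were deposited as 1 matrix of UMI counts per gene and hashtag for each barcode. Per the file headers, the authors made these counts with Cell Ranger 5.0.1, while the submitters' processing notes name Cell Ranger 2.1.1 and GRCh38. Barcodes were kept from 1000 genes up and to 20% mitochondrial UMIs. A barcode was given the pair of its 2 highest tags where the second had at least 3 times the UMIs of the third, which can also remove doublets that carry further strong tags; no doublet caller was run and doublets within a pair remain, and pairs with under 100 barcodes were left out. 1110 kept cells had no pair. UMIs were summed per pair and divided by all gene UMIs (CPM). Intervals are 95% exact (Poisson for counts, binomial for shares and ratios) and cover counting error only. Relations used log2(CPM + 10). The range step and the ratio intervals were tested on simulated data, the variance steps were not. Alternatives included TMM scaling (edgeR 4.0.16), cell and tag filters, thinning and other pseudocounts. Members and lists were chosen with earlier results of these data known. Named were all members, in each list the 2 genes of highest mean and the 2 of widest range (of at least 20 CPM), and per member the 3 genes with the highest rho, of which 1 is not reported here; BBC3 and BCL2L11 are under the 20 CPM this last rule asks for and were added after values were seen, as were BCL2, BMF, BCL2A1, MDM2, CCNG1 and the cell classes by antiviral and G2/M share. Gene IDs were matched to GENCODE 29 for 34616 of 36602 genes. Software was Python 3.11.15, numpy 2.4.6, scipy 1.17.1, pandas 2.3.3 and R 4.3.3.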

Additional observations from a re-analysis of the deposited data

How the results depend on the processing

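The difference of the killer to protector log2 ratio, 1.06 between the highest and lowest sample, was 0.76 with cells thinned to 3000 UMIs, 1.5 without BAX, 1.48 with BH3-only genes alone, 1.67 against BCL2L1 alone, 1.09 against MCL1 alone and 0.77 with BAD, BIK and BOK among the killers and BCL2A1, BCL2 and BCL2L2 among the protectors, the last set chosen after seeing the data. HTO8/HTO10 or HTO2/HTO10 had the highest ratio in all settings run except the stricter cell filter, where it was HTO3/HTO9. HTO3/HTO9 had the lowest ratio against MCL1 alone and with BAX and BAK1 alone as killers. The 4 members ranging by 2-fold or more became 1 with a pseudocount of 50 CPM and 2 (PMAIP1 and BAK1) with each member's highest sample left out. With TMM scaling the count stayed at 4, but the log2 range of BCL2L1 fell to 0.93 and that of BID rose to 1.06. PMAIP1 reached 4-fold under the stricter cell filter (2.05 in log2), and BAK1 with thinned cells (2.13). Over all genes 1504 of 5767 ranged that far. The count was 836 of 3017 where genes had to average 50 CPM and 2091 of 9495 at 5 CPM, so numerator and denominator moved together. It was 2433 of 5846 under the stricter cell filter (2000 genes, 10% mitochondrial UMIs), 3383 of 5740 with thinned cells, and 2357 or 495 of 5767 when the pseudocount was 1 or 50 CPM. Thinned cells leave fewer counts, so counting noise widens ranges. TMM shifted all genes of a sample alike, by between -0.08 (HTO4/HTO8) and 0.07 (HTO5/HTO8) in log2. No paired analysis was possible because the hashtag samples carry no replicate numbers and no groups were compared.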
